A study of Rattus norvegicus with 4 samples.

Results

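Liver X receptor (LXR) sterol response genes were examined in rat tendon stem/progenitor cells (rTSPCs) labelled as aged, the cultured progenitors that maintain and repair tendon. The rule named 6 genes. They were the receptor genes Nr1h3 (LXRα) and Nr1h2 (LXRβ), the sterol exporters Abca1 and Abcg1, the ubiquitin ligase gene Mylip, and Srebf1, which encodes the lipogenic transcription factor SREBP-1. Of these, 5 stood among the 7235 named genes of the table, and Abcg1 was not analysed here. The genes were chosen with the difference between the treatments already known, so their own values are given as a description with no test.

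By the labels, cells came from rats of 18 months and received prim-O-glucosylcimifugin (POG) at 20 μM or an equal amount of its solvent, dimethyl sulfoxide (DMSO). RNA from each culture was hybridized to an Affymetrix Rat Transcriptome Array, with 2 arrays labelled 18M + POG here and 2 labelled 18M + DMSO. The treatment entries have both treatments run to passage 12. In the study's methods that passage belongs to serial passaging of cells from young rats, while cells of aged rats were treated for days only, so the labelled age and the labelled treatment do not match the same experiment and which of them applies is unknown. The titles of the DMSO arrays also mention both treatments, so the groups follow the treatment entries and directions and group names are given as labelled. The labels call the arrays biological replicates without saying whether each came from a different rat, and p-values therefore measure only the spread between these arrays.

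Values are log2 signals after robust multichip analysis (RMA), in which a difference of 1 unit corresponds to a ratio of signals of 2. Across genes, Pearson's r was 0.995 between the 18M + DMSO arrays, 0.994 between the 18M + POG arrays and from 0.962 to 0.965 for pairs that crossed the groups. Of 7235 genes, 37.6% differed at an adjusted p under 0.05 from limma, 20.4% higher and 17.2% lower in 18M + POG. With any 1 array left out, 1128 to 1252 genes passed in place of 2723. The median difference over all genes was 0.04. Transcripts of all 13 measured cell division genes were lower in 18M + POG, with a median difference of -3.64, and the log2 of their summed signal was 16.92 in both 18M + DMSO arrays against 13.18 to 13.36. Whether this difference had a part in the values below was not tested. In bulk RNA, fewer cells of a type and less RNA per cell cannot be told apart.

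LXRs are nuclear receptors that bind oxysterols, pair with a retinoid X receptor and switch on genes that lower cellular cholesterol. In many cell types this sends sterol out through ABCA1 and ABCG1, slows its uptake through MYLIP, which marks lipoprotein receptors for degradation, and raises SREBP-1c, which drives fatty acid synthesis. Sterol efflux and lipogenesis thus sit side by side under the same receptors. SREBP-2, the sister factor of SREBP-1, is activated when sterol is scarce and raises cholesterol synthesis.

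Among the LXR genes, the targets were higher in 18M + POG and the receptors differed little. Srebf1 and Abca1 had the widest separation, Mylip a smaller one, and Nr1h3 and Nr1h2 overlapped between the groups. At the threshold used for other genes 3 of the 5 were higher and 0 lower, where 20.4% of all genes were higher. In the same 3 genes both 18M + POG arrays lay above both 18M + DMSO arrays, as they did in 37.2% of all genes, while 0 of the 5 had both below, as 32.7% of all genes did. Neither count is evidence about these genes, since this contrast chose them.

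**Figure D1:**
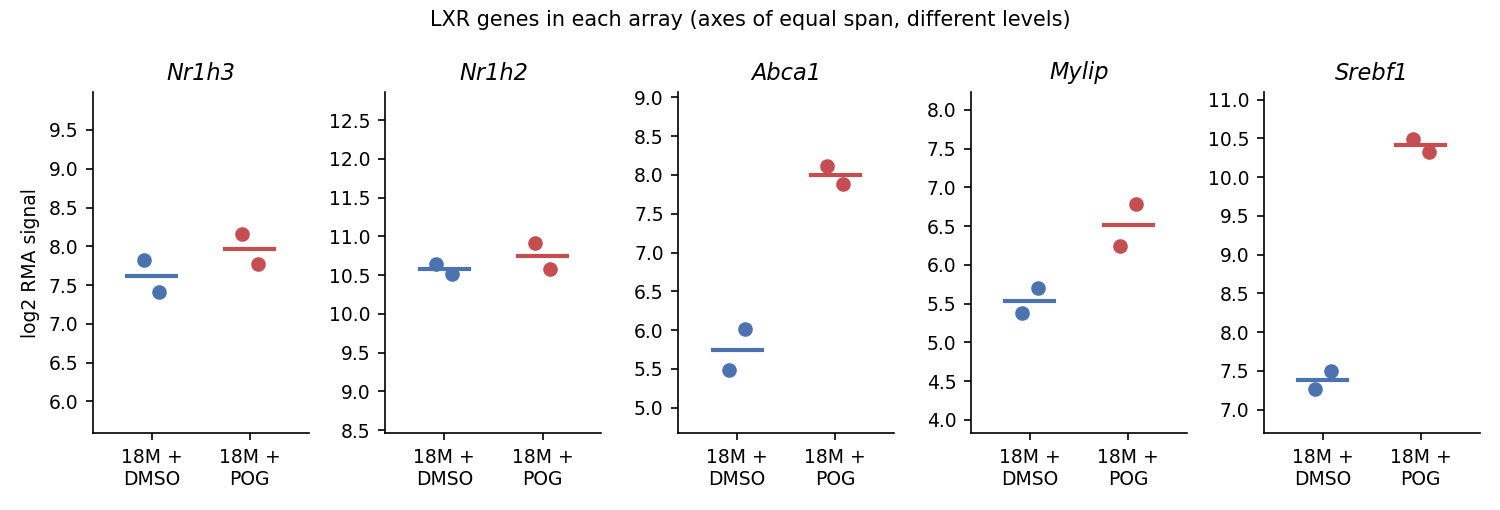
Log2 RMA signal (vertical axis) of the 5 measured LXR genes in each array, with 18M + DMSO in blue and 18M + POG in red. Points are arrays, bars are means of 2 arrays, and each panel spans the same number of log2 units at its own level. The groups are apart for Srebf1, Abca1 and Mylip and overlap for Nr1h3 and Nr1h2.

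Nr1h3, the receptor gene that is itself an LXR target in some cells, read 7.82 and 7.41 in the 18M + DMSO arrays and 8.16 and 7.77 in the 18M + POG arrays. The lower 18M + POG array fell 0.05 below the higher 18M + DMSO array, so the groups overlapped. The difference of means was 0.35 (standard error 0.22, 95% interval -0.12 to 0.82), with a gap of 0.41 between the arrays of one group and 0.39 between those of the other. Nr1h2, the broadly expressed receptor gene, read 10.64 and 10.51 in 18M + DMSO and 10.92 and 10.58 in 18M + POG. Its groups overlapped as well, with a difference of 0.18 (standard error 0.20, 95% interval -0.26 to 0.61). Both intervals include 0 as well as increases of up to 0.82 and 0.61. Without one array at a time, the differences ran from 0.145 to 0.555 for Nr1h3 and from 0.005 to 0.345 for Nr1h2.

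Abca1 encodes the transporter that loads cellular cholesterol and phospholipid onto lipid-poor apolipoproteins. Its signal was 5.48 and 6.01 in 18M + DMSO and 8.11 and 7.88 in 18M + POG. Both 18M + POG arrays stood at least 1.87 above both 18M + DMSO arrays, and the wider gap within a group, 0.53, was between the 18M + DMSO arrays. The mean rose from 5.745 ± 0.375 (SD, n = 2) to 7.995 ± 0.16 (SD, n = 2), a difference of 2.25 (standard error 0.22) or 4.76-fold, the 43rd largest increase among 7235 genes. Leaving out an array of 18M + DMSO moved this difference most, to 1.99 without replicate 1 and to 2.52 without replicate 2.

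Srebf1 encodes SREBP-1a and SREBP-1c from alternative starts, and the table holds 1 value for the gene, so the isoforms were not told apart. The signal was 7.27 and 7.50 in 18M + DMSO and 10.49 and 10.33 in 18M + POG. The arrays of each group lay within 0.23 of each other, while the groups stood 2.83 apart at their closest. The difference of means was 3.03 (standard error 0.20), or 8.14-fold, and ranged from 2.91 to 3.14 with any 1 array left out. It was the 10th largest increase of all genes.

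Mylip, also called Idol, read 5.38 and 5.70 in 18M + DMSO and 6.25 and 6.79 in 18M + POG. The groups did not overlap, with 0.55 between their nearest arrays, about as wide as the gap of 0.54 between the 18M + POG arrays. The difference was 0.98 (standard error 0.23), or 1.97-fold, and ran from 0.71 without POG replicate 2 to 1.25 without POG replicate 1. The tables give no detection calls, and the lowest signals of the arrays were 3.08 to 3.15, so how far the low Mylip and Abca1 signals of 18M + DMSO stood above background is unknown.

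The promoters of the LXR genes with the widest separation are shown because they share a stretch of sequence. RefSeq promoter windows on GRCr8, 250 bases before to 50 bases after each annotated start, were found for all 5 genes, with separate upstream and downstream starts for Srebf1. In the windows below, printed 5′ to 3′ on the gene's strand, capitals mark the match to a DR4 element together with the shared stretch in Abca1 (chr5:72596424-72596723, minus strand), and the shared stretch alone in Srebf1 (downstream start, chr10:45518961-45519260, minus strand).
Abca1: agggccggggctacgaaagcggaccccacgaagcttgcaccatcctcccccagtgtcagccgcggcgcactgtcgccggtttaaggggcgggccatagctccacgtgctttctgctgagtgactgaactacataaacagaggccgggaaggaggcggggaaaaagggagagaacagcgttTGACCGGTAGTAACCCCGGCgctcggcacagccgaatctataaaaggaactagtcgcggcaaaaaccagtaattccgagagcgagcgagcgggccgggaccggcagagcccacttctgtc
Srebf1: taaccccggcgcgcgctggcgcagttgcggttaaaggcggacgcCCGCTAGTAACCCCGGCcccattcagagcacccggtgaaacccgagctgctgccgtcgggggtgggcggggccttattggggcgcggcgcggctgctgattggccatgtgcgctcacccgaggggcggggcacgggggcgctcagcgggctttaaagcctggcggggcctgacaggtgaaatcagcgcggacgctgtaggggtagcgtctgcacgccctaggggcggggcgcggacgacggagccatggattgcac

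The DR4 element to which the receptor pair binds is a direct repeat of AGGTCA with 4 free bases between the copies, searched on both strands with up to 3 mismatches. Abca1 held a match starting at position -70 from its annotated start, on the antisense strand, with 3 mismatches. Of 33469 promoter windows, 21.9% held such a match, so it is common. Neither Srebf1 window held a match, nor did those of Mylip, Nr1h3 and Nr1h2, and the closest sites in these windows had 4 or 5 mismatches. Bases more than 250 before a start were not searched. The downstream Srebf1 window opens with taaccccggc, the end of the stretch shared with Abca1, so a site across that edge could not be scored. The lack of a match therefore describes the windows and not the whole promoters.

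The longest run shared by the Abca1 window and the downstream Srebf1 window was TAGTAACCCCGGC, 13 bases long and in the same orientation in both genes. It overlaps the DR4 match of Abca1. It began at position -63 from the start of Abca1 and at -202 from the downstream start of Srebf1. With a single free base it extends to CCGNTAGTAACCCCGGC, whose letters are capitals in the aligned stretches below (Abca1, chr5:72596518-72596546; Srebf1, chr10:45519194-45519222; both minus strand).
Abca1: gtttgaCCGgTAGTAACCCCGGCgctcgg
Srebf1: ggacgcCCGcTAGTAACCCCGGCcccatt
Searched on both strands, the run of 13 bases was present in 2 of 33469 windows, or 0.00598%, namely the pair from which it was taken. The upstream Srebf1 window shared at most 9 bases in a row with that of Abca1. The run was picked by comparing these windows and describes them. It does not show that a factor bound there.

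**Figure D2:**
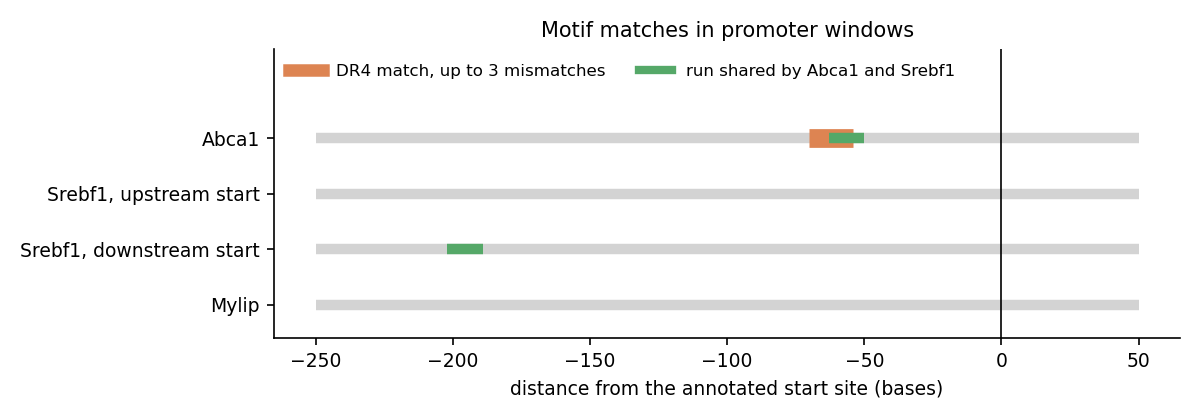
Motif matches in the promoter windows of Abca1, Srebf1 (both starts) and Mylip, plotted as distance in bases from the annotated start site. Orange marks a DR4 match with up to 3 mismatches and green the run shared by Abca1 and the downstream Srebf1 window. The marks overlap upstream of the Abca1 start, beginning at -70 and -63, and the Srebf1 run begins at -202.

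Other LXR target genes were higher in 18M + POG. Of 21 written, 9 were measured, and all 9 passed as higher, where 20.4% of all genes did. Their median difference was 1.49 against 0.04 over all genes. This list and those below were written with earlier results of these data known. The stearoyl-CoA desaturase gene Scd, which makes monounsaturated fatty acids, read 10.02 and 9.98 in 18M + DMSO and 12.72 and 12.74 in 18M + POG. The arrays of a group thus agreed within 0.04 and the groups stood far apart, with a difference of 2.73 (standard error 0.19, adjusted p = 7.8e-08 from limma). Its relative Scd2 had a difference of 2.47 (standard error 0.19, adjusted p = 1.9e-07).

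Targets on the side of lipid transport moved the same way. Lpl, the lipase that frees fatty acids from triglyceride-rich lipoproteins, read 6.43 and 6.61 in 18M + DMSO and 8.47 and 8.40 in 18M + POG, a difference of 1.92 (adjusted p = 3.1e-06). Smpdl3a, a secreted phosphodiesterase related to acid sphingomyelinase, went from a mean of 7.91 ± 0.085 (SD, n = 2) to 9.73 ± 0.39 (SD, n = 2), a difference of 1.82 (adjusted p = 1.7e-05). Apoe encodes apolipoprotein E, a lipid acceptor that ABCA1 loads. It read 7.49 and 7.90 in 18M + DMSO and 9.0 and 9.37 in 18M + POG, which gave a difference of 1.49 (standard error 0.22, adjusted p = 1e-04), and its groups stood apart. Pltp, the phospholipid transfer protein gene, had a difference of 1.27 (adjusted p = 0.00052) that did not pass without POG replicate 1 (adjusted p = 0.065).

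The remaining targets had smaller differences. Lpcat3, which places polyunsaturated chains into phospholipids, was 1.03 higher (adjusted p = 0.0011). Ttc39b, which promotes LXR turnover in mice, was 0.80 higher (adjusted p = 0.0058), and Fasn, the fatty acid synthase gene, 0.70 higher (adjusted p = 0.020). Leaving out 1 array at a time, 6 of the 9 passed under every omission. Fasn passed under none (adjusted p = 0.05 to 0.2), and Ttc39b failed without DMSO replicate 1, POG replicate 1 or POG replicate 2 (adjusted p up to 0.095). Promoter windows were found for 7 of the 9, and 1 of the 7, that of Smpdl3a, held a DR4 match.

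**Figure D3:**
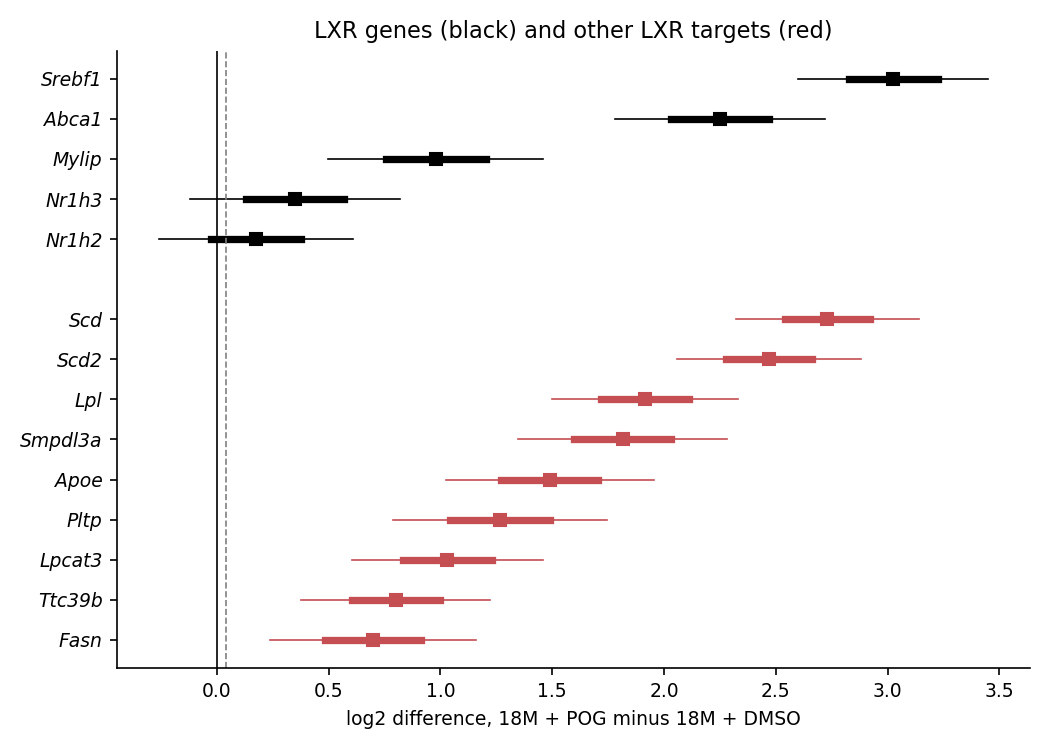
Log2 difference between 18M + POG and 18M + DMSO (horizontal axis) for the 5 measured LXR genes in black and 9 other LXR targets in red. Squares are differences of means of 2 arrays, thick lines 1 standard error and thin lines 95% intervals, both from limma; the dashed line is the median of all genes, 0.04. Srebf1 at 3.03, Scd at 2.73 and Abca1 at 2.25 lie far to the right, whereas the intervals of Nr1h3 and Nr1h2 include 0.

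Of 19 measured genes of sterol efflux and of sterol traffic inside the cell, 6 were called higher and 2 lower. The other 11 missed the threshold, and the median difference was 0.32. The list shares Apoe and Pltp with the other LXR targets, and Abcg4 and Abca7 with the relatives of the exporters below. The 8 calls are a share near the 37.6% called over all genes, so the count sets the list apart in no way, and single genes are described. Gramd1b, which encodes the protein Aster-B that carries cholesterol from the plasma membrane to the endoplasmic reticulum, read 5.46 and 5.4 in 18M + DMSO and 7.61 and 7.47 in 18M + POG. Its groups were 2.01 apart at their closest, and the difference of 2.11 (standard error 0.19, adjusted p = 1.1e-06) was the largest increase of the list. Npc2, which hands cholesterol out of the lysosome, had a difference of 0.84 (adjusted p = 0.0040) that passed only without DMSO replicate 1 when single arrays were omitted.

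The genes that fell were Tmem97 and Soat1. Tmem97, the sigma-2 receptor gene, whose product binds the lysosomal cholesterol exporter NPC1, read 12.80 and 12.52 in 18M + DMSO and 10.74 and 10.88 in 18M + POG, a difference of -1.85 (standard error 0.20, adjusted p = 5.9e-06). Soat1 encodes the enzyme that esterifies cholesterol for storage, and its level was 12.69 and 12.83 against 11.97 and 11.90, a difference of -0.83 (standard error 0.19, adjusted p = 0.0042). The Soat1 call was lost without DMSO replicate 2, POG replicate 1 or POG replicate 2 (adjusted p up to 0.071). Omitting any of these same 3 arrays left 4 genes of the list past the threshold in place of 8.

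Relatives of the exporters were few in the table. Of 19 ABCA and ABCG genes written, 4 were measured, with a median difference of 0.67 against 0.04 over all genes. Called higher were 3 of the 4, where 20.4% of all genes were. They were Abca5 at 0.94 (adjusted p = 0.0089), Abca2 at 0.71 (adjusted p = 0.017) and Abcg4, the closest relative of Abcg1, at 0.64 (adjusted p = 0.024), while Abca7 had 0.50 (adjusted p = 0.056). None of them came near the 2.25 of Abca1. Of these calls 0 passed when DMSO replicate 1 or either POG array was omitted, and 1 when DMSO replicate 2 was.

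Of 9 measured partners and coregulators of the receptors, 2 were called higher and 1 lower, 6 missed the threshold, and the median difference was 0.13. This share of calls is near the 37.6% called over all genes, so the count says nothing particular of the partners. Rxra, which encodes the retinoid X receptor that pairs with LXR, read 8.29 and 7.83 in 18M + DMSO and 8.49 and 8.14 in 18M + POG. The groups overlapped (difference 0.26, 95% interval -0.22 to 0.73, adjusted p = 0.38). Tbl1xr1 and Gps2 belong to the corepressor complex that holds unliganded nuclear receptors silent. They went opposite ways, with Tbl1xr1 1.41 higher (adjusted p = 8.4e-05) and Gps2 at -0.98 (adjusted p = 0.0020). The coactivator gene Ppargc1a was 1.15 higher (adjusted p = 0.0014), from 4.44 and 4.57 to 5.32 and 5.98. Only Tbl1xr1 passed without DMSO replicate 1, DMSO replicate 2 or POG replicate 2.

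Enzymes that make or remove oxysterols, the ligands of LXR, were measured for 4 of 10 genes. Called higher were 2 and lower 0, where 20.4% and 17.2% of all genes were. On 4 genes this count says nothing particular of the list, and single genes are described. Hsd3b7 acts on sterols that are already hydroxylated and leads them towards bile acids. It read 7.81 and 7.85 in 18M + DMSO and 9.39 and 8.91 in 18M + POG, a difference of 1.32 (standard error 0.21, adjusted p = 0.00023). Cyp7b1, an oxysterol hydroxylase gene, had a difference of 0.68 (adjusted p = 0.027) and was kept only without POG replicate 1. The ligand-forming enzymes did not pass. Ch25h read between 3.88 and 4.22 in all arrays, close to the lowest signals, and Cyp27a1 had a difference of 0.46 (adjusted p = 0.091).

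Lipoprotein receptors, the substrates of the Mylip product, were higher where they were measured. Of 13 receptor and partner genes written, 5 were measured. Called higher were 2 and lower 1, where 20.4% and 17.2% of all genes were. With so few genes the count says nothing particular of the list. Vldlr, a receptor that MYLIP marks for degradation, read 11.49 and 11.68 in 18M + DMSO and 13.16 and 13.02 in 18M + POG. The groups were 1.34 apart at their closest, with a difference of 1.51 (standard error 0.20, adjusted p = 3.6e-05). Lrp1, an endocytic receptor for apolipoprotein E, was 1.24 higher (adjusted p = 0.00025). Lrp8 was not analysed here. Usp2, a deubiquitinase gene, was at -0.62 (adjusted p = 0.031) with all arrays and passed under none of the omissions, and the ubiquitin-conjugating partners Ube2d1 and Ube2d3 did not pass (adjusted p = 0.27 and 0.28). Arrays measure transcripts, and turnover of receptor protein was not measured.

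On the lipogenic side, most measured genes were higher beside Srebf1. Of 18 genes of fatty acid and triglyceride synthesis, 13 were called higher and 0 lower, where 20.4% and 17.2% of all genes were. The other 5 missed the threshold, and the median difference was 0.98 against 0.04 over all genes. The list shares Scd, Scd2 and Fasn with the LXR targets. Acss2, which makes acetyl-CoA from acetate, read 7.60 and 7.69 in 18M + DMSO and 10.09 and 10.21 in 18M + POG, a difference of 2.51 (standard error 0.19, adjusted p = 1.8e-07). Fads1, a desaturase gene of polyunsaturated fatty acid synthesis, was 1.52 higher (adjusted p = 3.0e-05). At an unadjusted p under 0.05 from limma, 14 were higher and 0 lower, and the methods' t-test with its fold limit gave 9 and 0.

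The 5 genes that did not pass act in triglyceride assembly and chain elongation. The acyltransferase genes Gpam, at -0.005 (adjusted p = 0.99), Dgat1, at -0.32 (adjusted p = 0.27), and Dgat2, at 0.53 (adjusted p = 0.050), build triglyceride, and Elovl5 and Elovl6, at 0.03 (adjusted p = 0.92) and -0.26 (adjusted p = 0.42), lengthen fatty acids. Lpin1, a phosphatase of the same route, was 1.35 higher (adjusted p = 0.00037). Of the adipocyte markers measured, 1 of 4 was higher, 1 lower and 2 did not pass, where 37.6% of all genes passed. Adipoq, which encodes adiponectin, read 4.81 and 4.95 in 18M + DMSO and 5.83 and 6.14 in 18M + POG, while Pparg, the adipogenic receptor gene, fell by 0.70 (adjusted p = 0.015). Fabp4 and Lep, at 0.44 (adjusted p = 0.11) and 0.205 (adjusted p = 0.42), did not pass. In 3 of the 4 markers both 18M + POG arrays lay above both 18M + DMSO arrays, and in 1 both lay below. Over all genes 37.2% and 32.7% did so. The log2 of the summed signal of these 4 markers mixes both directions. It was 7.41 to 7.63 in 18M + DMSO and 7.48 to 7.70 in 18M + POG, so it overlapped.

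The genes that regulate SREBP activation included some of the larger changes. Insig1, which holds the SREBP escort SCAP in the endoplasmic reticulum and is itself an SREBP target, read 12.60 and 12.71 in 18M + DMSO and 15.22 and 15.28 in 18M + POG, a difference of 2.60 (standard error 0.19, adjusted p = 1.3e-07). Insig2 and Scap did not pass, with differences of 0.51 (adjusted p = 0.083) and 0.31 (adjusted p = 0.23). Of the 9 measured genes of this machinery, 4 were called higher and 2 lower, where 20.4% and 17.2% of all genes were. The 4 include Lpin1, which the list of fatty acid and triglyceride synthesis also holds. Erlin1, a restraint on SREBP activation, was lower (-0.99, adjusted p = 0.0048). With any 1 array left out, fewer of the 6 calls remained. The Erlin1 call was lost without DMSO replicate 1, DMSO replicate 2 or POG replicate 1.

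Srebf2, the gene of SREBP-2, read 9.58 and 9.80 in 18M + DMSO and 10.83 and 10.56 in 18M + POG. The groups were 0.76 apart, and the difference of 1.01 (standard error 0.20, adjusted p = 0.0014) was smaller than the 3.03 of Srebf1. The Srebf2 call was lost without DMSO replicate 1 or POG replicate 1 (adjusted p up to 0.061).

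Most cholesterol synthesis genes were higher in 18M + POG. Of 16 measured, 14 were called higher and 0 lower, where 20.4% and 17.2% of all genes were, and the median difference was 0.87. In all 16 both 18M + POG arrays lay above both 18M + DMSO arrays, as in 37.2% of all genes. At an unadjusted p under 0.05 from limma, 15 were higher and 0 lower. Lss, which closes the sterol ring, read 10.08 and 9.89 against 12.13 and 11.92, a difference of 2.04 (standard error 0.20, adjusted p = 2.0e-06). Cyp51, Tm7sf2 and Sqle, enzymes before and after that step, were 1.68, 1.66 and 1.18 higher (adjusted p = 1.0e-05, 2.1e-05 and 0.00052). Ebp and Acat2 did not pass (adjusted p = 0.48 and 0.058). Fewer genes passed without one array, namely 8 and 5 when DMSO replicate 1 or 2 was omitted and 7 and 8 when POG replicate 1 or 2 was.

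**Figure D4:**
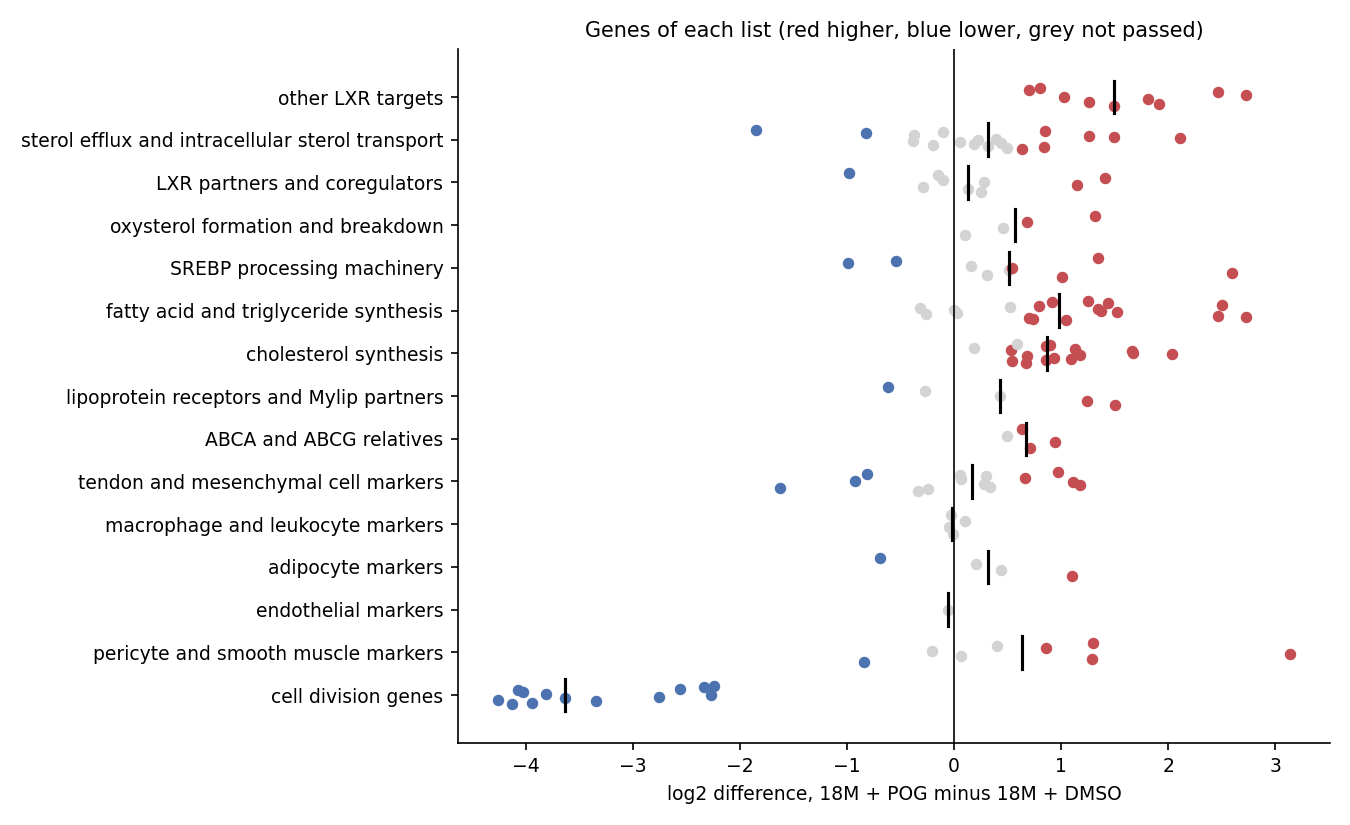
Log2 difference between 18M + POG and 18M + DMSO (horizontal axis) for each measured gene of the lists (rows). Points are genes, red where higher, blue where lower and grey where the adjusted p was 0.05 or more, and black bars are list medians. Other LXR targets (median 1.49), fatty acid synthesis (0.98) and cholesterol synthesis (0.87) lie to the right, and cell division genes (-3.64) to the left.

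Genes outside this group with the most similar pattern were found by the root mean square difference between log2 profiles over the 4 arrays, each taken relative to its own 18M + DMSO mean. Those nearest to Abca1 were Olfml2b (0.052), an olfactomedin family gene, Ifit2 (0.117), an interferon-induced gene, and Slitrk6 (0.129). Olfml2b read 10.83 and 11.30 in 18M + DMSO and 13.46 and 13.29 in 18M + POG, so it tracked the uneven 18M + DMSO arrays of Abca1 closely. Those nearest to Srebf1 were the smooth muscle myosin gene Myh11 (0.155), Rarres2 (0.163), which encodes chemerin, and the stress-response gene Nupr1 (0.169). With 4 arrays such likeness is a description of these values.

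Markers of macrophages, a cell type in which LXR targets are well known, differed little between the groups. Of 16 macrophage and leukocyte markers written, 4 were measured and none passed, where 37.6% of all genes did. At an unadjusted p under 0.05 from limma 0 passed, and 0 by the methods' t-test. Their differences ran from -0.05 to 0.10, with Cd68 between 5.0 and 5.32 and Fcer1g between 3.38 and 3.56 in all arrays. Cd14, the brightest of the 4, read 8.46 to 8.83 and weighs most in their summed signal. The log2 of their summed signal was 8.77 to 9.03 in 18M + DMSO and 8.89 to 9.06 in 18M + POG. The endothelial marker Kdr, alone measured of its list, differed by -0.06 (adjusted p = 0.86). Of 17 tendon and mesenchymal markers, 14 were measured. Col1a1 read between 19.08 and 19.41, but the tendon transcription factor gene Scx read only 5.48 to 6.09 and Comp 4.40 to 5.03. Of these 14, 4 were called higher and 3 lower, where 20.4% and 17.2% of all genes were. Higher were Dcn (1.18), Col3a1 (1.11), Nt5e (0.97) and Eng (0.67), and lower were Tnc (-1.63), Thbs4 (-0.93) and Cd44 (-0.81). Of 8 pericyte and smooth muscle markers 4 were higher and 1 lower. The part of these markers in the LXR gene values was not tested.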

How the data were processed

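Gene expression was measured on Affymetrix Rat Transcriptome Arrays in 2 arrays of 18M + DMSO and 2 of 18M + POG, all labelled as cells of 18-month-old rats. The authors deposited log2 values made by RMA with default settings and global scaling, so depth does not apply, and the number of arrays limits the precision. Such scaling brings arrays to a common level (array medians 8.55 to 8.68) and can hide a shift shared by most genes. Each deposited table holds 10141 features with identical log2 values in both, a part of the array, and the versions of the authors' tools were not given in the sources used here.

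Features were named from the platform annotation. Of them, 7240 carried 1 gene symbol, 0 several, and 2901 were unnamed here. All 7240 gene IDs were in the RefSeq gene table of GRCr8, and 0 symbols changed. For the 4 genes with more than 1 feature, the feature with the highest mean over all arrays was taken, which left 7235 genes.

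Groups were compared with limma 3.58.1 (lmFit and eBayes, R 4.3.3), with group as the only term and Benjamini-Hochberg adjustment over all 7235 genes at 0.05. Fits were tested on simulated data. An exact permutation test of 2 against 2 arrays cannot give a two-sided p below 0.333. The study's methods name Student's t-test, which was run as an alternative (the methods' t-test). Other alternatives were quantile normalization or median subtraction again, removal of the dimmest 25% of genes, a variance prior that follows the signal, all features, the mean of features, a fold limit of 1.5, the replicate number as a block and each array left out.

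The genes described, the gene lists and the motifs were chosen with earlier results of these data known. Named genes are the LXR genes, up to 4 genes of each pathway list with the largest difference past the threshold, a fixed set around LXR and SREBP (Rxra, Rxrb, Srebf2, Scap, Insig1, Insig2, Vldlr, Lrp8, Apoe, Npc1, Npc2, Fasn, Scd, Scd2, Soat1 and another gene not reported here), and the 3 genes most like Abca1 and the 3 most like Srebf1. Of the fixed set, Rxrb, Lrp8 and Npc1 were not analysed here. Other LXR targets with smaller differences, genes named as not passing, and markers were chosen after their values were seen. The rule for the LXR genes used the contrast itself. Promoter windows (250 bases before to 50 after a start) are those of RefSeq on GRCr8.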

Additional observations from a re-analysis of the deposited data

How the results depend on the processing

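The differences of the 5 LXR genes kept their direction under the 9 alternatives run for them. The other deposited table, the mean of features and the replicate block gave identical differences and could not have changed a direction. This contrast also chose the genes. With single arrays left out the differences ranged from 1.985 to 2.515 for Abca1, 2.91 to 3.14 for Srebf1, 0.71 to 1.25 for Mylip, 0.145 to 0.555 for Nr1h3 and 0.005 to 0.345 for Nr1h2. The same omissions left 1128 to 1252 genes past the threshold in place of 2723, and 6 to 8 of the other LXR targets, 4 to 6 of the efflux and transport genes, 1 to 3 of the coregulators, 1 to 2 of the oxysterol genes, 2 to 4 of the SREBP machinery, 9 to 10 of fatty acid synthesis, 5 to 8 of cholesterol synthesis, 2 to 3 of the receptors and Mylip partners, and 0 to 1 of the exporter relatives. A lone array is then assumed to vary like the other group. Of 54 list genes past the threshold, 24 passed under all 4 omissions and 11 under none.

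The methods' t-test, unadjusted and with a fold over 1.5, gave 1570 genes (786 higher, 784 lower), with 5 for efflux and transport, 2 for the SREBP machinery, 8 for cholesterol synthesis, 1 for the oxysterol genes and 0 for the exporter relatives. After Benjamini-Hochberg it gave 0 over all genes and 0 in each list. Without the dimmest 25% of genes, 1 oxysterol gene passed. Median subtraction gave 1638 higher and 1120 lower, against 1475 and 1248.

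The replicate number as a block gave 2957 genes. Deviations of same-numbered arrays from their group means correlated at 0.145 over only 2 pairs, and the labels name no shared source, so the arrays share only a number. Under the block Abca7 (adjusted p = 0.049), Insig2 (0.044), Dgat2 (0.043) and Acat2 (0.042) also passed. The blocks were balanced between the groups, so the differences of the LXR genes could not change (Abca1 2.25, Srebf1 3.025, Mylip 0.98, Nr1h3 0.35, Nr1h2 0.175). The block gave 9 efflux genes, 7 of the SREBP machinery, and 14 of fatty acid and 15 of cholesterol synthesis. It also gave 4 exporter relatives, 9 other LXR targets, 3 coregulators, 2 oxysterol genes and 3 receptors and partners. Where a count moved, the cause was not tested. The omissions also had fewer arrays, and the part of this in their counts was not tested.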
